A study of Danio rerio with 9 samples.

Results

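Embryos of the zebrafish that had received Hif-1α mRNA were set against embryos that had received mRNA of the green fluorescent protein, GFP. The aim was to describe which gene functions besides a list of hypoxia targets and glycolysis differed between them. The comparison used 6 of the 9 arrays of the study, 3 titled Hif-1 and 3 titled Control, and matched them by replicate number, so that there were 3 pairs. Each array held RNA pooled from 60 whole Tuebingen embryos, collected 12 h after fertilization. The 3 replicates of a group came from independent microinjection experiments. The other 3 arrays, from embryos injected with Hif-3α mRNA, entered the estimate of the spread and the choice of the probes and genes tested. Controls and Hif-1α embryos had both received an injected mRNA, and the labels name no mutation or drug in either group. They do not give the dose of mRNA or the cells it reached, and say nothing on whether the injected Hif-1α resists degradation.

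Hypoxia-inducible factor (HIF) is a transcription factor of an alpha and a beta subunit. When oxygen is plentiful the alpha subunit is hydroxylated on proline, bound by the von Hippel-Lindau protein and degraded, and when oxygen is low it persists and activates genes of glucose use, oxygen supply and mitochondrial turnover. An excess of Hif-1α mRNA is a common way to raise the factor in an embryo kept in normal air. At the stage sampled a zebrafish embryo is forming somites, while the brain, eyes and axial organs are being laid out and the yolk still feeds it.

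Levels are given as log2 of the array's processed signal relative to the 75th percentile of that array, so that 0 marks a bright probe and each unit is a factor of 2. Differences are Hif-1α minus control, with the standard error (SE) of the limma fit in which the replicate number is a block. Arrays of the same number were taken to come from the same injection experiment. A gene is said to rise, fall or be called when its Benjamini-Hochberg adjusted p over all 19547 genes or transcripts tested was under 0.05. With 3 arrays a group, their number limits the precision. In RNA of whole embryos, fewer cells of a type and less RNA per cell cannot be told apart.

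Of 48 listed HIF targets 29 rose, 1 fell and 18 did not pass, and of 26 glycolysis genes 13 rose, 3 fell and 10 did not pass. The target list need not be complete, so genes described outside it may be targets too. With control replicate 3 left out, 10 and 6 rose. The level of gapdhs, a glyceraldehyde-3-phosphate dehydrogenase of glycolysis, was 2.63, 3.94 and 3.11 on control arrays 1, 2 and 3 and 8.28, 8.25 and 7.99 on the Hif-1α arrays. vhl, the gene of the von Hippel-Lindau protein, stood at -2.55 ± 0.45 in the controls against -0.77 ± 0.15 (SD, n = 3). Neither gene had overlapping groups, and they rose by 4.95 ± 0.26 (adjusted p = 0.00124) and 1.78 ± 0.16 (adjusted p = 0.00359). The injected Hif-1α RNA itself could not be looked for by name, since no probe was matched to hif1aa or hif1ab. Of the related epas1b, which encodes another HIF alpha subunit, 2 probes were higher by 0.45 ± 0.12 and 0.62 ± 0.17. They passed over the 31114 probes tested with the block (adjusted p = 0.0423 and 0.0476) and not without it (0.0798 and 0.109). The probes named hif1al differed by 0.13, 0.08, -0.05 and 0.06 and did not pass. On the Hif-3α arrays those with 0.13, 0.08 and 0.06 stood far above their control means of -1.94, 0.56 and -2.70. Their levels there were 6.7, 6.3 and 6.6, then 6.7, 6.0 and 6.5, and 4.0, 3.4 and 3.8. The probe with -0.05 was at 5.4 to 5.5 there, against 5.48 in the controls. Whether these probes read the injected Hif-3α RNA was not tested. The probe of hif1al2 was above background on no control or Hif-1α array and was not tested. vhl differed by 0.86 with normexp.

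Across the array 4404 genes or transcripts (22.5%) were called, 2280 higher (11.7%) and 2124 lower (10.9%). Of the called ones 2559 carried a gene symbol, 1216 higher and 1343 lower. Large changes were mostly rises: 854 rose and 338 fell at least 2-fold, 187 rose and 19 fell at least 4-fold, and 63 rose and 1 fell at least 8-fold. These are fitted folds, and 68 of the risers were above background on no control array and 20 of the fallers on no Hif-1α array. Among the 18001 genes above background on all 6 arrays, 649 rose and 233 fell at least 2-fold, 108 and 2 at least 4-fold, and 28 and 0 at least 8-fold, with 2021 called higher and 1949 lower at any size. The 4402 called genes with a value in every pair differed with the same sign in all 3 pairs. Without the block, limma called 1857 (9.5%), and 1856 were called in both fits, 1119 higher (5.72%) and 737 lower (3.77%). A gene given below with its difference passed both fits unless stated. Groups that did not overlap, with all 3 arrays of a group above all 3 of the other, were found for 34% of the genes tested.

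The number of calls rested on single arrays. When control array 1, 2 or 3 was left out, limma called 1561, 5801 or 940. Leaving out the Hif-1α arrays gave 1210, 2984 and 1030 calls in the same order, and leaving out the Hif-3α arrays 3200, 3151 and 2414. A gene given with its difference kept its call whichever 1 array was left out, unless an exception is named. The counts within gene lists moved with these totals, and for most lists the lowest count with 1 array left out is given. The 75th percentile of the processed signal, to which each array was scaled, followed the groups. It was 766, 822 and 795 on control arrays 1, 2 and 3 and 500, 611 and 562 on the Hif-1α arrays. The scaling thus raised the Hif-1α arrays relative to the controls. Scaling mattered too: centred on each array's median, 1756 genes were higher and 3297 lower, and the median difference of all genes moved from -0.01 to -0.12. With normexp correction of the background followed by 75th percentile scaling it moved to -0.20 and limma called 0 genes, with 1050 at an unadjusted p under 0.05. Gene groups are therefore read below against the median of all genes. Normexp adds an offset of 50 to every signal, which makes the differences of dim genes smaller. With it and the 75th percentile 49 of the 123 genes described had differences smaller by over 1.5 times or turned, and these values, written as with normexp, stand at the end of each paragraph.

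The arrays were scanned on different days, and the split follows the groups in part. Control replicates 2 and 3 and Hif-1α replicate 2 shared a day, while control replicate 1 was scanned on another day and Hif-1α replicates 1 and 3 on yet another. Only pair 2 was thus scanned on 1 day, and its differences were the smallest: the median absolute difference of the called genes was 0.80, 0.52 and 0.82 in pairs 1, 2 and 3. Pair 2 had the smallest absolute difference of the 3 pairs for 65.7% of the called genes. Whether scan day, slide or the second injection experiment goes with this was not tested. Numbered by the barcodes in the file headers, control arrays 1, 2 and 3 were on slides 1, 4 and 6. The Hif-1α arrays were on slides 7, 5 and 7. No slide held both a control and a Hif-1α array, also within the shared scan day, so slide and group cannot be told apart. Within the shared day, with 1 Hif-1α and 2 control arrays, 4402 of the 4404 called genes kept their direction, and the median ratio of the difference there to that over all arrays was 0.96. These arrays also took part in making the calls. limma called 0 genes within that day (2262 at an unadjusted p under 0.05), 4 with scan day as a block in place of the experiment and 72 with both.

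**Figure D1:**
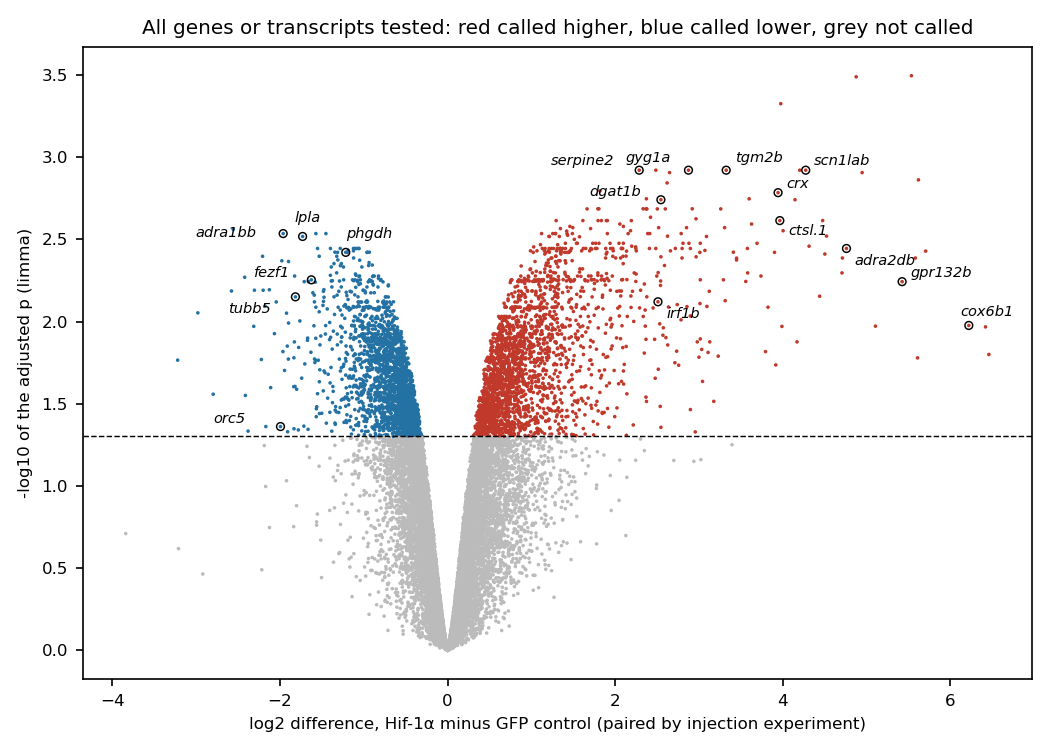
Each point is 1 gene or transcript, with its log2 difference between Hif-1α and GFP control embryos on the horizontal axis and -log10 of its limma adjusted p on the vertical axis; the dashed line marks 0.05. The 2280 red points are called higher and the 2124 blue points lower, and the red side reaches farther out, with 187 rises and 19 falls of at least 4-fold.

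Outside the HIF target and glycolysis lists, 15 genes were taken as those that rose most and 15 as those that fell most. The riser with the largest difference was cox6b1, a subunit of cytochrome c oxidase. Its level was -4.83, 0.55 and -1.16 on control arrays 1, 2 and 3 and 4.22, 4.61 and 4.40 on the Hif-1α arrays, so the controls spread widely and the Hif-1α arrays did not. It rose by 6.22 ± 0.95 (adjusted p = 0.0106), and the call was lost without control replicate 3 (differences without 1 array ran from 4.83 to 7.33). stc1, the gene of the hormone stanniocalcin, which in fish lowers calcium uptake, showed the same kind of spread. It stood at -5.36, -2.23 and -4.50 against 0.40, 0.25 and -0.23, and rose by 4.17 ± 0.71, a call lost without control 3 or either of Hif-1α arrays 1 and 3 (3.39 to 5.16). stc1 differed by 2.15 with normexp.

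Several of the largest rises began from signals that the arrays could barely see. gpr132b, a G protein-coupled receptor, vamp1b, a protein of vesicle fusion, il12rb2, a chain of the interleukin-12 receptor, f9b, related to clotting factor IX, and rbm46, an RNA-binding protein of germ cells in mice, were called higher. They cleared the background on 1 of 3 control arrays and on all Hif-1α arrays, so the size of their rise was not measured. They entered the test through the Hif-1α group, where they were high. The alpha-2 adrenergic receptor adra2db, the fast muscle myosin myhz2, the sodium channel scn1lab and the caspase casp6b.2 were above background on no control array. For these 4 genes only an approximate bound can be given: 7.80-fold, 6.72-fold, 6.50-fold and 4.41-fold higher in the Hif-1α embryos. There the brighter group is set against the lowest signal of any probe that counted as above background on an array. The limit of a given probe can be higher, so the bound is not strict. In the gene lists below, adra2db, gpr132b, il12rb2, vamp1b, myhz2, scn1lab and casp6b.2 are counted as risers. The differences of gpr132b, adra2db, vamp1b, myhz2, il12rb2, scn1lab, casp6b.2, f9b and rbm46 were 1.35, 0.44, 1.02, 0.46, 1.17, 0.30, 0.20, 0.44 and 0.64 with normexp.

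The rest of these risers were measured on all 6 arrays. crx, a homeobox gene of photoreceptors and the pineal organ, stood at -5.38, -4.47 and -5.42 in the controls and at -1.15, -0.94 and -1.35 with Hif-1α. It rose 15.4-fold (3.94 ± 0.23, adjusted p = 0.00164), and no Hif-1α array came near a control array. The cathepsin ctsl.1 rose 15.6-fold (3.96 ± 0.28, adjusted p = 0.00243), irg1l, related to an enzyme of itaconate synthesis, 10.9-fold (3.45 ± 0.36, adjusted p = 0.00422), and the transglutaminase tgm2b by 3.32 ± 0.17 (adjusted p = 0.0012). The differences of ctsl.1, crx and irg1l were 2.51, 1.43 and 1.499 with normexp.

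The falls were smaller. tubb5, a beta-tubulin, had levels of 5.07, 4.49 and 5.40 in the controls and 2.79, 3.41 and 3.31 with Hif-1α. It fell by 1.82 ± 0.24 on the log2 scale (adjusted p = 0.00707), with the smallest step in pair 2. aanat2, an enzyme of melatonin synthesis in the pineal organ, went the other way from crx: it was 0.61, 0.38 and 0.70 against -0.93, -1.32 and -0.72 and fell by 1.55 ± 0.15 (adjusted p = 0.00359). fezf1, a zinc finger gene of the forebrain, fell by 1.63 ± 0.19, bhlhe22, a neural helix-loop-helix gene, by 1.58 ± 0.19, and dpysl5a, of the collapsin response family of growing axons, by 1.76 ± 0.26. The call of dpysl5a was lost without control replicate 3 or Hif-1α replicate 3 (-2.15 to -1.54). dpf1, a neural chromatin factor, and foxred1, an assembly factor of respiratory complex I in humans, each fell by 1.48, with SEs of 0.19 and 0.20.

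Some of the fallers ended near background. adra1bb, an alpha-1 adrenergic receptor, was above background on 1 of 3 Hif-1α arrays and was called lower (adjusted p = 0.00292). The size of its fall, fitted as 1.96 ± 0.16, was thus not measured. The G protein gamma subunit gng13b was above background on no Hif-1α array and was lower there by an approximate bound of 2.66-fold. orc5, a subunit of the complex that marks replication origins, was above background on 2 of 3 Hif-1α arrays and fell by 1.99 ± 0.54 (adjusted p = 0.0435). Its call was kept in 1 of the 9 fits that leave out an array, and the difference ran from -2.43 to -1.18. ugt5b4, a glucuronosyltransferase above background on no Hif-1α array, was lower by an approximate bound of 1.80-fold. Its call was kept in 2 of those 9 fits (-1.96 to -1.01). The differences of orc5, adra1bb, gng13b and ugt5b4 were -0.79, -0.87, -0.79 and -0.81 with normexp.

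**Figure D2:**
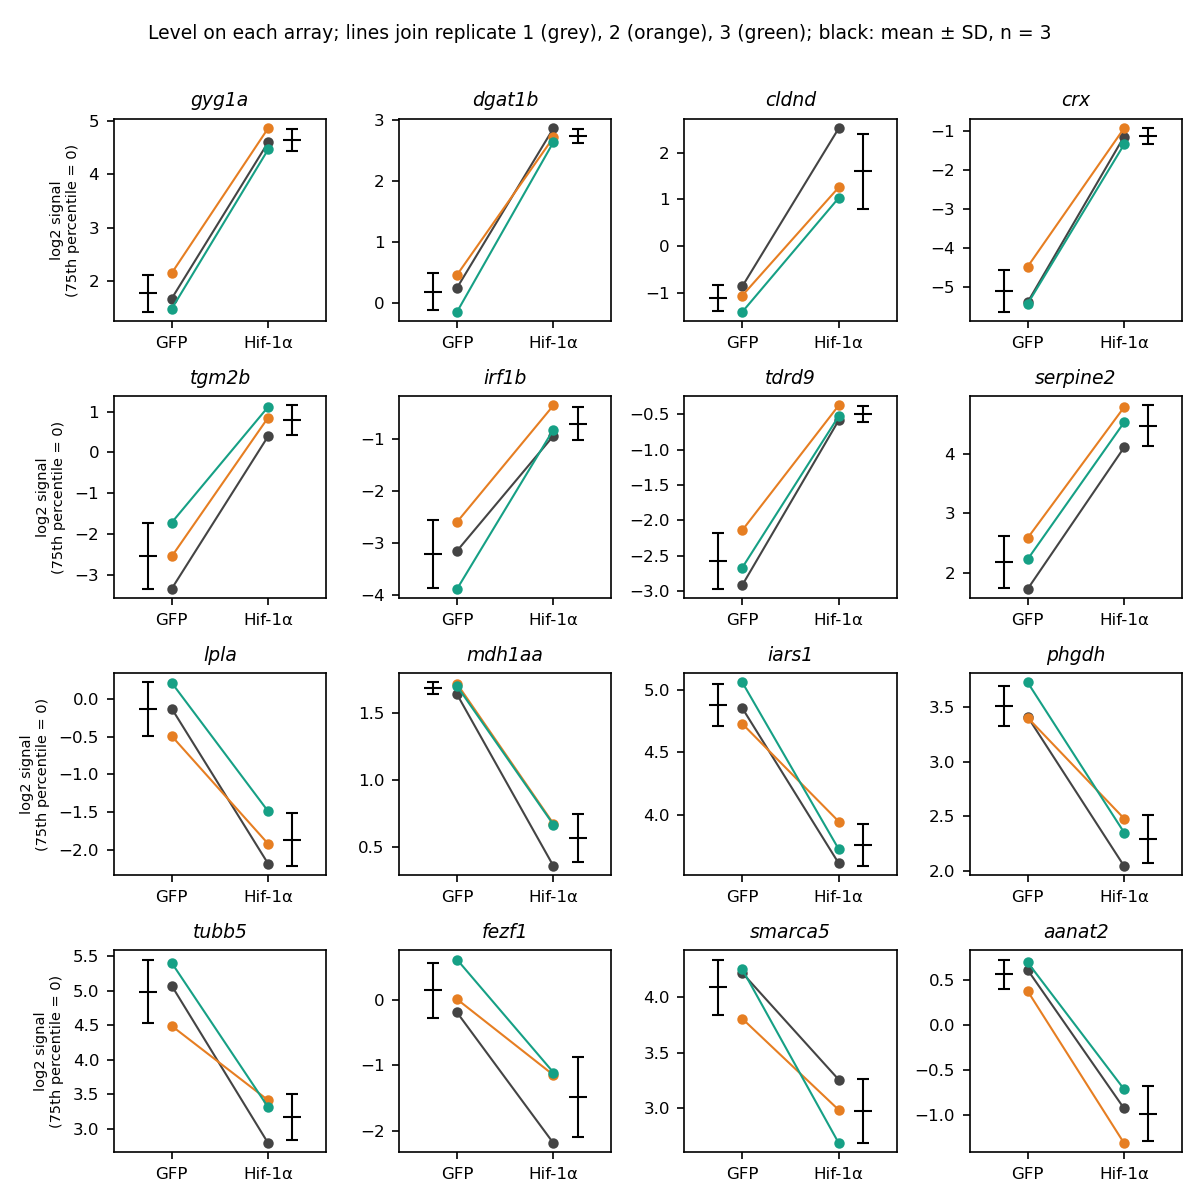
Level of 16 genes named in the text on each control (GFP) and Hif-1α array, as log2 signal with the array's 75th percentile at 0. Lines join arrays of the same replicate number, and black bars show mean ± SD of 3 arrays. In gyg1a, dgat1b, crx and tdrd9 the 3 lines rise with little spread on the Hif-1α side, while lpla, iars1, phgdh and tubb5 fall, each of them least in pair 2 (orange).

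Among genes of carbohydrate storage, several glycogen enzymes rose. Glycogen is the stored form of glucose: glycogenin starts a chain, glycogen synthase extends it and phosphoglucomutase links it to glycolysis. gyg1a, a glycogenin, stood at 1.68, 2.15 and 1.48 in the controls and at 4.60, 4.87 and 4.47 with Hif-1α, a rise of 7.33-fold (2.87 ± 0.14, adjusted p = 0.0012). pgm1, the phosphoglucomutase, was 0.96, 3.04 and 1.71 against 4.40, 5.22 and 4.78 and rose by 2.90 ± 0.26 (adjusted p = 0.00359). gys1, the glycogen synthase, was above background on 2 of 3 control arrays and rose by 2.05 ± 0.28 (adjusted p = 0.00809). Of the 22 genes of glycogen and pentose phosphate metabolism limma called 8 higher and 0 lower (0 lower at an unadjusted p under 0.05), 7 of the 8 also without the block, and between 3 and 8 with 1 array left out. The 14 other members did not pass. The median of the list was 0.04, with 0.31, 0.14 and 0.19 by pair and 0.17 within the shared scan day. gys1 differed by 0.07 with normexp.

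Transcripts of the citric acid cycle, of mitochondrial import and of mitochondrial ribosomes were called lower and not higher, though most members of each list did not pass. Of 27 genes of the citric acid cycle and pyruvate entry 11 fell and 0 rose (0 at an unadjusted p under 0.05), 5 of them also without the block, with a median of -0.44. The median in pairs 1, 2 and 3 was -0.54, -0.26 and -0.60, and -0.37 within the shared scan day. mdh1aa, a cytosolic malate dehydrogenase counted in that list, was 1.64, 1.72 and 1.71 in the controls and 0.36, 0.68 and 0.67 with Hif-1α. It fell by 1.12 ± 0.11 (adjusted p = 0.00411), and the 3 control arrays agreed closely.

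Import and translation in mitochondria gave these counts. Of 35 genes of protein import and cristae 14 fell and 0 rose (0 at an unadjusted p under 0.05), 7 also without the block, with a median of -0.36 (-0.46, -0.21 and -0.61 by pair). chchd4a, which folds proteins in the space between the mitochondrial membranes, fell by 0.99 ± 0.12 and timm13, a chaperone of that space, by 0.71 ± 0.10. samm50, which inserts proteins into the outer membrane, fell by 1.28 ± 0.20, a call lost without control replicate 3 or Hif-1α replicate 3 (-1.54 to -1.13). Of 65 mitochondrial ribosomal proteins 18 fell and 0 rose (0 at an unadjusted p under 0.05), 8 also without the block. Their median was -0.35, and with normexp and the 75th percentile it was 0.01 above the median of all genes, against 4 scalings below it. mrpl12, of the large mitochondrial subunit, fell by 0.90 ± 0.14, and its call was lost without control replicate 3 or Hif-1α replicate 1 or 3 (-1.04 to -0.77). Without control replicate 3 limma called 2 members of the citric acid cycle list, 2 of the import list and 0 of the mitochondrial ribosome list lower.

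In autophagy, which digests cell parts in the lysosome, 6 of 21 genes rose and 1 fell, and 4 of the 6 rose also without the block. map1lc3c, a protein that coats the forming vesicle, was -1.15, -1.58 and -1.86 in the controls and 1.41, 0.30 and 0.24 with Hif-1α. It rose by 2.18 ± 0.17 (adjusted p = 0.0028), most in pair 1. The median of the list was 0.15, and with 1 array left out between 1 and 10 members rose, the fewest without control replicate 1.

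Lipid genes split by function. Of 24 genes of fatty acid oxidation 9 fell and 1 rose, 4 of the 9 also without the block, with a median of -0.49 (-0.56, -0.21 and -0.58 by pair). hadh, acadvl and cpt2, enzymes that shorten fatty acids or carry them into mitochondria, fell by 0.97 ± 0.18, 0.69 ± 0.13 and 0.65 ± 0.13. Each of these 3 calls was lost without control replicate 1 or 3 or Hif-1α replicate 1 or 3, those of hadh and cpt2 also without Hif-1α replicate 2, and without control replicate 3 limma called 0 of the list lower. The differences of the 3 genes then ran from -1.17 to -0.60. acadvl differed by -0.45 with normexp.

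In triglyceride and fatty acid storage 13 of 44 genes rose and 5 fell, 5 and 4 of them also without the block, with a median of 0.25. With 1 array left out between 3 and 13 rose, the fewest without Hif-1α replicate 1. dgat1b, which makes triglyceride, was 0.25, 0.46 and -0.14 in the controls and 2.86, 2.71 and 2.63 with Hif-1α. It rose 5.84-fold (2.54 ± 0.16, adjusted p = 0.00181), and the Hif-1α arrays lay close together. cd36, a fatty acid receptor, rose 2.47-fold and elovl1a, which lengthens fatty acids, 2.49-fold. In the other direction, lpla, a lipoprotein lipase that frees fatty acids from lipoproteins, was -0.13, -0.49 and 0.22 against -2.18, -1.92 and -1.49 and fell 3.32-fold (-1.73 ± 0.14, adjusted p = 0.00304). elovl2, which lengthens polyunsaturated fatty acids, fell 2.14-fold. elovl1a differed by 0.36 with normexp.

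Lipid transport and membrane lipids rose more often than they fell. Of 29 apolipoproteins and lipid transfer proteins 11 rose and 3 fell (6 and 0 also without the block), with a median of 0.34 (0.30, 0.19 and 0.43 by pair). Without control replicate 1 limma called 4 of them higher. The exporter abcg2a rose by 1.89 ± 0.19, the retinoid transporter abca4a by 1.41 ± 0.12, and stard3 and stard14, of the sterol and lipid transfer family, rose 2.15-fold and 2.53-fold. Of 52 enzymes of sphingolipids and phospholipids 12 rose and 5 fell (9 and 2 also without the block, and 6 higher without Hif-1α replicate 3), with the phospholipase plcd3a higher by 1.57 ± 0.17. Of 59 cytochrome P450 and hydroxysteroid dehydrogenase genes 12 rose and 1 fell (8 and 0 also without the block, and 4 higher without Hif-1α replicate 3), with cyp46a1.3, of the cholesterol hydroxylase family, higher by 1.48 ± 0.21 and hsd17b12a, of fatty acid elongation, by 1.29 ± 0.13. Cholesterol synthesis had 2 of 23 genes called in each direction, a share below the 22.5% of all genes. The differences of abca4a, abcg2a, plcd3a and cyp46a1.3 were 0.57, 0.20, 0.20 and 0.33 with normexp.

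Among genes of protein synthesis, aminoacyl-tRNA synthetases were called lower in the largest share. Ribosome biogenesis, splicing and RNA polymerase genes were called lower in shares near that of all genes. The medians of these last lists were -0.22, -0.19 and -0.20, against -0.01 for all genes. The synthetases load each amino acid onto its transfer RNA. Of 23 measured, 16 fell and 0 rose (0 at an unadjusted p under 0.05), and 12 fell also without the block. The median was -0.55, and -0.63, -0.43 and -0.77 in pairs 1, 2 and 3. The list lay below the median of all genes under all 5 other scalings, with distances from -0.54 to -0.24. With 1 array left out, between 4 (without control replicate 3) and 16 were called. iars1, for isoleucine, was 4.85, 4.73 and 5.06 in the controls and 3.61, 3.94 and 3.72 with Hif-1α and fell by 1.12 ± 0.13 (adjusted p = 0.00564). mars1 for methionine, aars1 for alanine and lars2, the mitochondrial enzyme for leucine, fell by 0.82 ± 0.13, 0.74 ± 0.10 and 0.75 ± 0.10.

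Some enzymes that make amino acids fell too. Of 19 genes of serine, glycine and one-carbon metabolism 6 fell and 1 rose, 4 of the 6 also without the block and between 3 and 8 with 1 array left out, the fewest without control replicate 3. The median was -0.38. phgdh, the entry step of serine synthesis, was 3.41, 3.40 and 3.72 in the controls and 2.05, 2.48 and 2.35 with Hif-1α, and fell 2.32-fold (adjusted p = 0.00379). psat1, the next enzyme of that path, fell by 1.02 ± 0.14. Among 26 enzymes of amino acid breakdown 5 rose and 6 fell (1 fell without control replicate 3). There the cytosolic aspartate aminotransferase got1 fell 2.15-fold, from 0.82, 0.70 and 0.72 to -0.18, -0.39 and -0.50. The mitochondrial form got2b went up instead, from 3.20, 3.52 and 3.55 to 4.88, 4.88 and 4.72, a rise of 1.40 ± 0.15 (adjusted p = 0.00426). The difference between the 2 isozymes was not tested.

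Among 73 translation factors 19 fell and 3 rose, but 2 and 1 also without the block, and the median was -0.26. Without control replicate 1 limma called 1 of them lower. With normexp and the 75th percentile that median lay 0.07 above that of all genes, against 4 scalings below. eif4ebp3l, a repressor of cap-dependent translation, rose by 1.18 ± 0.22, from 4.66, 5.54 and 5.01 to 6.29, 6.28 and 6.18. Its call was lost without control replicate 3 or Hif-1α replicate 1 or 3 (0.94 to 1.46). Ribosome biogenesis had 6 of 49 genes lower (12.2%), near the 10.9% of all genes. It had 0 higher (1 at an unadjusted p under 0.05), against 11.7% of all genes. Splicing factors had 7 of 81 lower and 3 higher. With normexp and the 75th percentile the medians of these 2 lists lay 0.16 and 0.17 above that of all genes, against 4 scalings below. The median of the RNA polymerase genes lay 0.15 above it there, also against 4 scalings below.

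Transcripts of the proteasome were called lower more often than higher. The proteasome is the barrel that degrades proteins tagged with ubiquitin. Of 50 subunits and helpers 23 fell and 2 rose, 9 and 1 also without the block, with a median of -0.38 and -0.45, -0.18 and -0.54 by pair. psmd4a, which receives ubiquitin chains, fell by 0.71 ± 0.13 and psmc2, an ATPase of the cap, by 0.57 ± 0.10. Both calls were lost without control replicate 1 or 3 or Hif-1α replicate 1 or 3 (differences from -0.87 to -0.52), and without control replicate 1 limma called 0 of the list lower. psme1, of the activator linked to antigen processing, rose by 1.14 ± 0.13, from -0.34, -0.15 and -0.83 to 1.00, 0.70 and 0.41. Among 116 genes of ubiquitin conjugation and removal 7 rose (6.03%, against 11.7% of all genes) and 12 fell (10.3%, against 10.9%). The deubiquitinase uchl1 rose by 1.37 ± 0.17. Lysosomal enzymes and cathepsins moved both ways, with 11 of 36 higher and 6 lower, and 4 and 0 also without the block and 4 higher without control replicate 3. ctss2.2, related to cathepsin S, rose by 2.06 ± 0.21. The summed signal of 3 hatching gland markers, of which the cathepsin ctslb was called higher, was 246 to 257 in the controls and 310.1 to 382 with Hif-1α, and its part in the cathepsin counts was not tested. The differences of psmc2, uchl1 and ctss2.2 were -0.35, 0.42 and 0.29 with normexp.

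**Figure D3:**
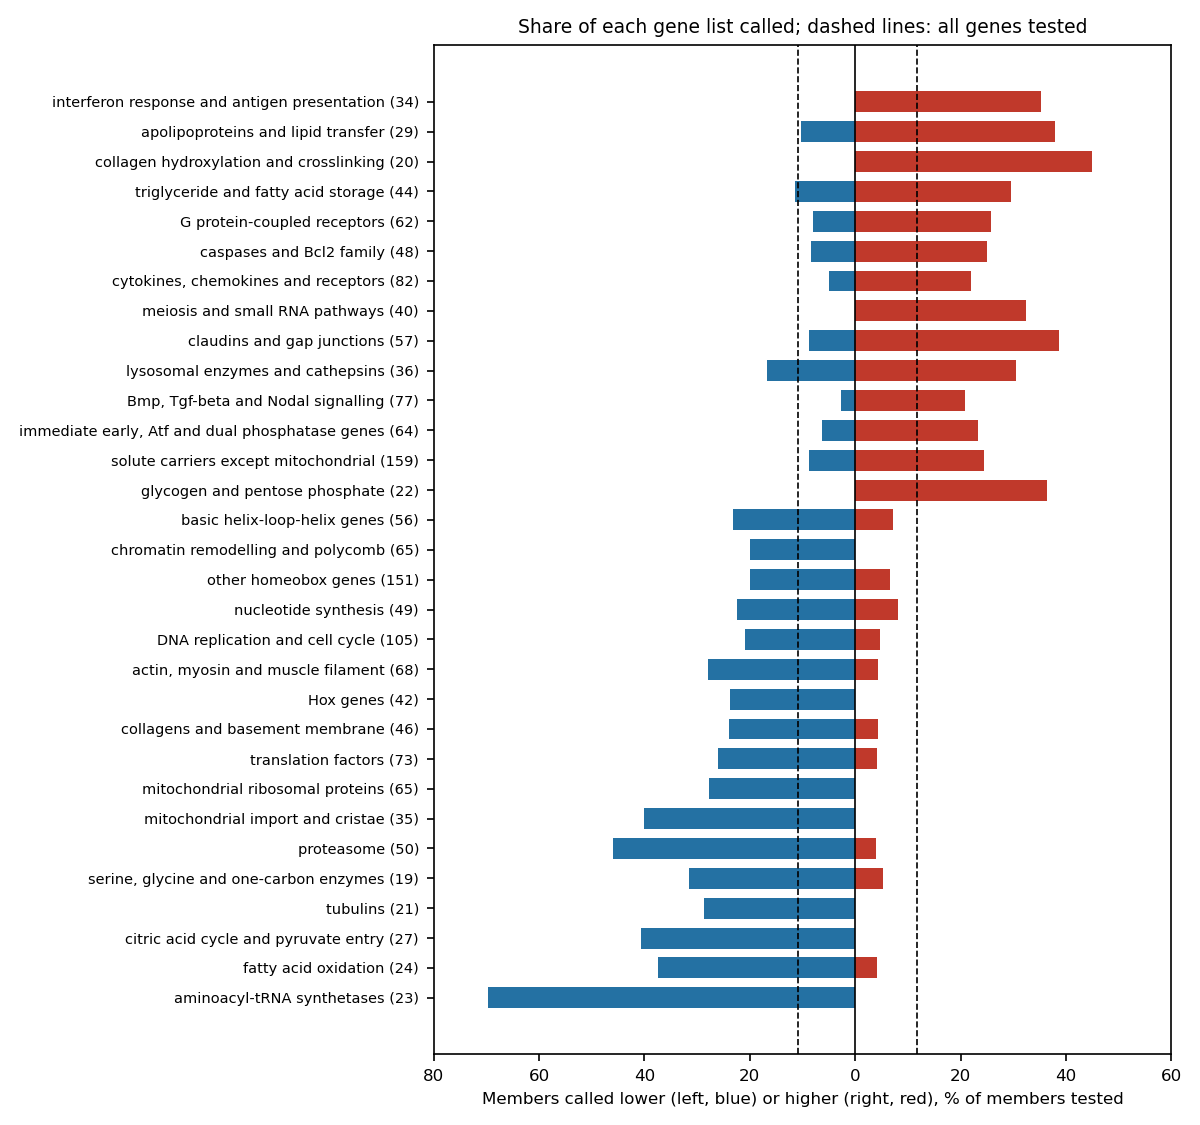
Share of the members of 31 gene lists, picked after their values were seen, called lower (blue, to the left) or higher (red, to the right) in Hif-1α embryos, in percent of the members tested (number in brackets), ordered by the median difference of the list. The dashed lines mark the shares over all genes tested, 10.9% lower and 11.7% higher. Aminoacyl-tRNA synthetases reach 69.6% lower and collagen hydroxylation and crosslinking 45% higher. Of this last list 13 members stand outside the HIF target list, and 3 of those rose.

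Genes of DNA synthesis and the cell cycle fell more often than they rose. Of 105 genes of replication and the cell cycle 22 fell and 5 rose, 10 and 3 also without the block, with a median of -0.23 (-0.24, -0.16 and -0.28 by pair). chek2, a kinase of the damage checkpoint, fell by 1.08 ± 0.16, and its call was lost without Hif-1α replicate 3 (-1.28 to -0.95). ccna1, a cyclin of germ cells and early embryos, rose by 1.46 ± 0.14. Without Hif-1α replicate 3, limma called 1 of the list lower. Of 49 genes of nucleotide synthesis 11 fell and 4 rose, 6 and 2 also without the block, with a median of -0.23, and 1 fell without control replicate 3. dck, which salvages deoxycytidine, fell by 0.96 ± 0.13. ak4, an adenylate kinase of mitochondria, rose by 1.71 ± 0.16, from 0.59, 1.53 and 1.22 to 2.46, 3.11 and 2.91, and nme3, a nucleoside diphosphate kinase, by 1.29 ± 0.13. The medians of both lists lay above that of all genes with normexp and the 75th percentile, by 0.02 and 0.03, and below it under the other 4 scalings. DNA repair had 6 of 59 genes lower (10.2%), near the 10.9% of all genes. It had 0 higher (2 at an unadjusted p under 0.05), against 11.7% of all genes. ccna1 differed by 0.49 with normexp.

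Among 65 genes of chromatin remodelling and polycomb complexes 13 fell and 0 rose (5 higher at an unadjusted p under 0.05), 7 also without the block and 2 without control replicate 3, with a median of -0.10. smarca5, the motor of the ISWI remodellers, was 4.21, 3.80 and 4.25 in the controls and 3.26, 2.99 and 2.69 with Hif-1α. It fell by 1.11 ± 0.16 (adjusted p = 0.00931), and smarcad1a, a related remodeller, by 1.36 ± 0.14. With normexp and the 75th percentile the list median lay 0.20 above that of all genes, against 4 scalings below. Of 85 histone and DNA modifying enzymes 7 rose and 15 fell, 4 and 6 also without the block and 1 and 2 without Hif-1α replicate 3. prmt6, an arginine methyltransferase, fell by 1.14 ± 0.17, a call lost without Hif-1α replicate 3 (-1.36 to -0.95). kdm4c and jmjd6, oxygen-using enzymes of the Jumonji family, rose by 1.51 ± 0.28 and 1.29 ± 0.22. Both calls were lost without control replicate 1 or 3 or Hif-1α replicate 1 or 3 (1.14 to 1.89). kdm4c differed by 0.73 with normexp.

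Some genes of the germ line were called higher, though most did not pass. Of 40 genes of meiosis and small RNA pathways 13 rose and 0 fell (4 lower at an unadjusted p under 0.05), 9 also without the block, and between 8 and 13 with 1 array left out. tdrd9, a helicase of the piRNA pathway, was -2.91, -2.14 and -2.67 in the controls and -0.58, -0.37 and -0.53 with Hif-1α, a rise of 2.08 ± 0.20 (adjusted p = 0.00359). h1m, the linker histone of oocytes, rose by 2.10 ± 0.18 and bmp15, a growth factor of the oocyte, by 1.55 ± 0.13. btg4, which helps clear maternal mRNA in mice and was counted in another list, rose by 2.65 ± 0.14 from dim signals. The 4 germ cell markers ddx4, nanos3, dnd1 and tdrd7a were all called higher, and their summed linear signal ran from 0.52 to 0.59 in the controls and from 0.91 to 0.99 with Hif-1α, relative to the 75th percentile of each array. The list median was 0.15, with 0.24, 0.02 and 0.23 by pair. The differences of bmp15, tdrd9 and btg4 were 0.48, 1.12 and 0.58 with normexp.

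Solute carriers, ion channels and G protein-coupled receptors were called higher more often than lower, and ABC transporters, aquaporins and ion-pumping ATPases lower more often than higher. Of 159 solute carriers outside mitochondria 39 rose and 14 fell, 16 and 4 also without the block, with a median of 0.08. slc24a4a, a calcium exchanger, rose by 2.15 ± 0.17, from -3.34, -3.59 and -4.29 to -1.34, -1.61 and -1.81. slc1a4, a carrier of neutral amino acids, was above background on 1 of 3 Hif-1α arrays, so the size of its fall was not measured. The fitted fall was 1.83 ± 0.31, a call lost without control replicate 3 or Hif-1α replicate 3 (-2.13 to -1.41). Without Hif-1α replicate 1, 11 of these carriers were called higher. Of 22 carbonic anhydrases and acid-base transporters 7 rose and 1 fell, 2 and 0 also without the block and 1 higher without control replicate 1, with a median of 0.33, and ca15b, a carbonic anhydrase, rose by 1.48 ± 0.19. Of 53 ion channels 9 rose and 2 fell (17% and 3.77%, against 11.7% and 10.9% of all genes), and 4 rose without control replicate 3. Without the block 3 and 0 of these calls also passed, a higher share near the 5.72% of all genes in both fits. The potassium channel kcnk6 rose by 1.80 ± 0.12, and scn1lab, as given above, was above background on no control array. Of 18 ABC transporters and aquaporins 3 rose and 7 fell (1 lower without Hif-1α replicate 3), and the water and glycerol channel aqp3a rose by 2.21 ± 0.28. Of 19 ion-pumping ATPases 1 rose and 5 fell, 0 and 1 also without the block and 0 lower without control replicate 1, with a median of -0.19. With normexp and the 75th percentile the medians of the solute carriers and of the acid-base list each stood at -0.01 from that of all genes, that of the channels at -0.16, against 4 scalings above. The differences of slc1a4, slc24a4a, ca15b, kcnk6 and aqp3a were -0.84, 0.71, 0.87, 0.79 and 0.70 with normexp.

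Of 62 G protein-coupled receptors 16 rose and 5 fell, 11 and 2 also without the block, with a median of 0.24, which stood at -0.04 from that of all genes with normexp and the 75th percentile and above it under the other 4 scalings. With control replicate 3 left out, limma called 6 of them higher. The alpha-2 adrenergic receptors adra2db and adra2da were called higher and the alpha-1 receptor adra1bb lower. As given above, adra2db was above background on 0 control arrays, gpr132b on 1 of 3 control arrays and adra1bb on 1 of 3 Hif-1α arrays. These dim members are in the counts of the list. A receptor that cleared the filter only through the Hif-1α group was high there by that choice. The receptors were not tested against each other. adra2da was -4.36, -5.14 and -4.29 in the controls and -2.67, -3.21 and -3.25 with Hif-1α, a rise of 1.55 ± 0.17 (adjusted p = 0.00529). f2rl1.2, a receptor switched on by proteases, rose by 1.54 ± 0.20. Among 68 genes of neurotransmitter receptors and synaptic vesicles 7 rose and 6 fell, near the shares of all genes. nrxn3b, a neurexin of the synapse, rose by 2.45 ± 0.34, and rab3ip, an exchange factor of vesicle traffic, fell by 1.39 ± 0.14. The differences of adra2da, f2rl1.2 and nrxn3b were 0.15, 0.38 and 1.598 with normexp.

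Among genes of cell structure and matrix, tubulins, actin and myosin genes, collagens and cadherins were called lower more often than higher, and claudins, gap junction genes and enzymes that modify collagen higher more often than lower. Of 34 cadherins and protocadherins, which join cells, 7 fell and 1 rose (2 and 1 also without the block, and 1 lower without control replicate 3), with a median of -0.27. Of 28 keratins and other intermediate filament genes 5 rose and 4 fell (17.9% and 14.3%, against 11.7% and 10.9% of all genes). Of these calls 2 and 1 passed also without the block, and 0 rose without control replicate 3. The list median was 0.24. Of 21 tubulins 6 fell and 0 rose (0 at an unadjusted p under 0.05), 4 also without the block, with a median of -0.39 (-0.59, -0.30 and -0.44 by pair). With control replicate 3 left out, limma called 1 tubulin, 3 genes of the next list and 2 of the collagen list lower. Of 68 genes of actin, myosin and the muscle filament 19 fell and 3 rose, but 1 and 1 also without the block, with a median of -0.24. Of 46 collagens and basement membrane genes 11 fell and 2 rose, and each of these calls was lost without the block. col1a2, a chain of type I collagen, is an example of levels that differed between replicates. Its levels in replicates 1, 2 and 3 were 0.34, 1.44 and 2.68 in the controls and -1.26, 0.51 and 1.02 with Hif-1α. The groups overlapped, but within each pair the Hif-1α array was lower. The limma difference of -1.40 ± 0.16 passed with the block (adjusted p = 0.00523) and not without it (adjusted p = 0.298). matn4, a matrix protein, was likewise lower by 1.06 ± 0.10 (adjusted p = 0.00359 with the block and 0.253 without). matn4 differed by -0.69 with normexp.

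Among enzymes that modify collagen 9 were called higher. Lysyl and prolyl hydroxylases alter collagen chains in the cell with the use of oxygen, and lysyl oxidases and transglutaminases crosslink the fibres outside. Of 20 such genes 9 rose and 0 fell (0 at an unadjusted p under 0.05), 7 also without the block, with a median of 0.32 and 0.31, 0.33 and 0.22 by pair. Since 7 of the 20 also stand in the HIF target list, the 13 others were counted apart, and 3 of them rose. The lysyl oxidase loxl5b was 0.87, 1.07 and 1.11 in the controls and 1.92, 2.18 and 2.12 with Hif-1α, a rise of 1.06 ± 0.11 (adjusted p = 0.00566). tgm2b was -3.34, -2.55 and -1.72 against 0.40, 0.85 and 1.11, so that every pair rose from its own control level. plod1a, a lysyl hydroxylase, rose by 1.67 ± 0.26, a call lost without control replicate 3 or Hif-1α replicate 1 (1.37 to 1.97). The number that rose was 3 without control replicate 3. Among 38 proteases and inhibitors of the matrix 6 rose and 3 fell (15.8% and 7.89%, against 11.7% and 10.9% of all genes). Of these calls 2 and 0 passed also without the block, and 1 rose without control replicate 3. There serpine2, an inhibitor of plasmin-activating proteases, rose by 2.29 ± 0.11, from 1.73, 2.59 and 2.23 to 4.10, 4.78 and 4.52.

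Of 57 claudins and gap junction genes, whose products seal or connect neighbouring cells, 22 rose and 5 fell, 13 and 0 also without the block, with a median of 0.14. cldnd, a claudin, was -0.86, -1.06 and -1.41 in the controls and 2.53, 1.26 and 1.03 with Hif-1α. It rose 6.58-fold (2.72 ± 0.24, adjusted p = 0.00359), most in pair 1. The connexin gjb1a rose by 1.64 ± 0.19 and the occludin oclnb by 0.90 ± 0.11. Without control replicate 3 limma called 5 of the list higher. The epidermal keratins krt4 and krt8 were called higher too, while tp63 and cdh1, the other epidermis markers, did not pass. The summed linear signal of the 4 markers was 364 to 399 in the controls and 504 to 557 with Hif-1α. Bright genes weigh most in such a sum. Whether more epidermal RNA goes with the junction genes was not tested. gjb1a turned direction with normexp and the 75th percentile, to -0.13.

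Genes of body pattern moved in both directions. Of 42 Hox genes, which set position along the body axis, 10 fell and 0 rose (1 higher at an unadjusted p under 0.05), but 1 also without the block, with a median of -0.24. Of 151 other homeobox genes 30 fell and 10 rose, 7 and 8 also without the block. In the fit that omits control replicate 3, limma called 1 Hox gene lower, and 6 of the other homeobox genes lower and 4 higher. rx2, of the eye field, fell by 0.98 ± 0.16, from -0.31, -0.69 and -0.76 to -1.77, -1.53 and -1.40, and dlx4b, of the ear and epidermal border, by 0.99 ± 0.15. mxtx1 and mixl1, regulators of the yolk layer and endoderm, went up, by 2.09 ± 0.24 and 2.14 ± 0.25. mixl1 was -2.64, -1.70 and -2.73 in the controls and -0.14, -0.33 and -0.19 with Hif-1α. The 6 markers of endoderm and yolk layer summed to 9.73 to 16.4 in the controls and 21.5 to 31.6 with Hif-1α, with gata6, mxtx1 and mxtx2 called higher. mixl1 differed by 1.28 with normexp.

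Of 56 basic helix-loop-helix genes 13 fell and 4 rose, 6 and 1 also without the block, and 4 fell without Hif-1α replicate 3. The family as a whole was not lower: its median was -0.02, near the -0.01 of all genes. That median lay above the one of all genes under 4 of the 5 other scalings. mespba, which marks the forming somite, was 1.07, 0.93 and 0.83 in the controls and 0.38, 0.20 and 0.13 with Hif-1α, a fall of 0.71 ± 0.09 (adjusted p = 0.00599) with nearly equal steps in the pairs. Of the 5 somite markers myod1, desma and mespba were called lower, and their sum was 31.4 to 40.6 in the controls and 23.4 to 29.2 with Hif-1α. Among 82 Sox, Fox, Gata and T-box genes 7 rose and 11 fell (8.54% and 13.4%, against 11.7% and 10.9% of all genes). Of these calls 5 and 3 passed also without the block. In this list sox21b, of neural progenitors, was lower by 0.96 ± 0.13. Of the 4 notochord, 6 neural and 4 neural crest markers limma called 0 (1, 1 and 0 at an unadjusted p under 0.05), and their sums in the 2 groups overlapped for notochord and neural crest. The neural sum was 75.9 to 79.1 in the controls and 70.7 to 73.1 with Hif-1α.

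Among signalling pathways, 16 of 77 genes of Bmp, Tgf-beta and Nodal signalling rose and 2 fell, 7 and 0 also without the block, with a median of 0.13 and 0.23, 0.12 and 0.17 by pair. foxh1, a partner of Smad proteins in Nodal signalling, rose by 0.90 ± 0.15, a call lost without control replicate 3 or Hif-1α replicate 3 (0.76 to 1.05), and without control replicate 3 limma called 2 of the list higher. The shares of Wnt, Fgf, Hedgehog and retinoic acid genes were near those of all genes or below. Wnt had 7 of 57 genes higher and 5 lower, Fgf 2 of 35 higher and 3 lower, and Hedgehog and retinoic acid 6 of 46 higher and 4 lower. Notch and her genes had 1 of 46 higher and 8 lower, of which 1 and 0 passed also without the block. ihha, a Hedgehog ligand, was -1.36, -0.96 and -1.54 in the controls and 0.18, 0.05 and -0.12 with Hif-1α and rose by 1.32 ± 0.14 (adjusted p = 0.00426). Of 64 immediate early, Atf and dual phosphatase genes, only some of which answer stimuli within minutes, 15 rose and 4 fell. Without the block 12 and 0 also passed, and 6 were called higher without control replicate 3. fosab, a Fos factor, rose by 1.94 ± 0.17 and cebpb by 1.42 ± 0.16. ihha differed by 0.86 with normexp.

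**Figure D4:**
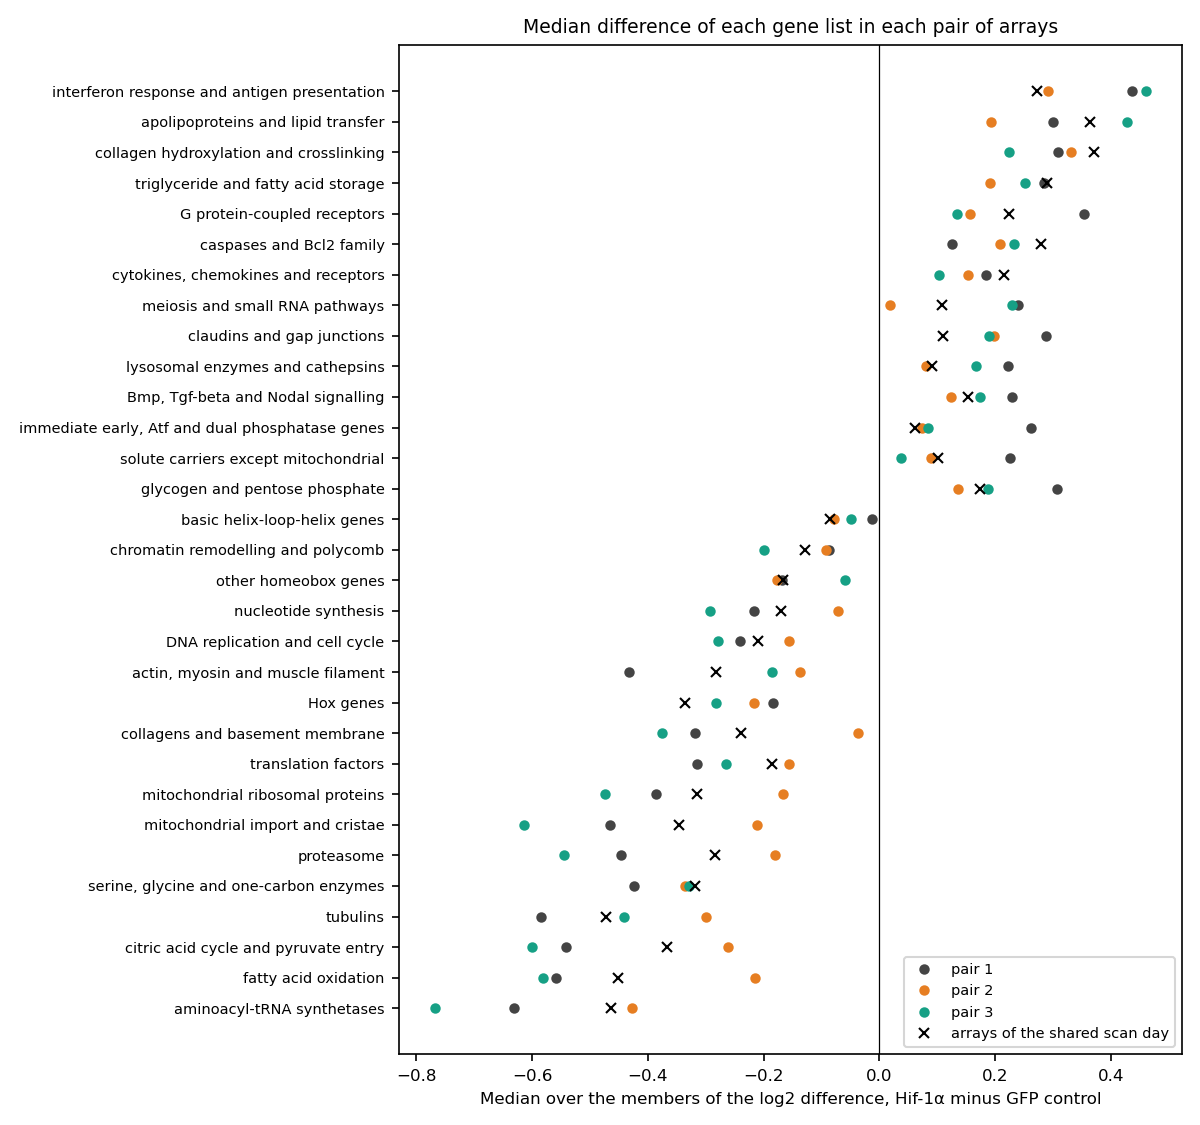
Median over each list's members of the log2 difference between Hif-1α and control arrays, for pairs 1 to 3 (circles) and for the arrays of the shared scan day (crosses). The 31 lists were picked from 76 after their values were seen. In them the 3 pairs lie on the same side of 0, which does not hold for lists not drawn such as Wnt signalling (0.01, -0.05 and 0.08), and pair 2 lies closest to 0 in lists such as fatty acid oxidation, at -0.56, -0.21 and -0.58.

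Immune and death genes rose more often than they fell. Of 34 genes of interferon response and antigen presentation 12 rose and 0 fell (1 lower at an unadjusted p under 0.05), 8 also without the block, with a median of 0.41 and 0.44, 0.29 and 0.46 by pair. irf1b and irf7, interferon regulatory factors, rose by 2.51 ± 0.33 and 1.51 ± 0.18. irf1b was -3.16, -2.60 and -3.89 in the controls and -0.94, -0.36 and -0.82 with Hif-1α. mhc1zba, of antigen presentation, rose by 0.97 ± 0.13. The number that rose was 4 without control replicate 3. Of 82 cytokines, chemokines and receptors 18 rose and 4 fell, 12 and 2 also without the block, and 7 were called higher without control replicate 3. Among those that fell were the chemokine ccl27a, by 0.96 ± 0.12, and the kinase jak2a, by 0.83 ± 0.12. Of 40 Trim and fish-specific immune genes 9 rose and 0 fell (1 lower at an unadjusted p under 0.05), and 3 rose without Hif-1α replicate 3. With normexp and the 75th percentile the medians of these last 2 lists each stood at -0.01 from that of all genes, against 4 scalings above. The differences of irf7, irf1b and mhc1zba were 0.21, 1.16 and 0.45 with normexp.

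Of 48 genes of the caspase and Bcl2 families 12 rose and 4 fell, 7 and 2 also without the block, with a median of 0.24. bik, a Bcl2 relative that promotes cell death, was -0.37, -0.32 and -1.22 in the controls and 1.26, 1.23 and 1.22 with Hif-1α, a rise of 3.66-fold (1.87 ± 0.22, adjusted p = 0.00564). tnfrsf1a, a receptor of tumour necrosis factor, rose by 1.47 ± 0.14. aifm1, which acts in mitochondria and also takes part in cell death, fell by 1.09 ± 0.15, from 2.22 ± 0.27 to 1.13 ± 0.03 (SD, n = 3). Without control replicate 3 limma called 5 of the list higher.

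In redox and heme metabolism the directions were mixed. Of 84 antioxidant and glutathione genes 12 rose and 18 fell, 7 and 3 also without the block. Without control replicate 3 limma called 2 of them higher, and without Hif-1α replicate 1 it called 1 lower. The peroxiredoxin prdx4 of the endoplasmic reticulum was 1.85, 2.46 and 2.46 in the controls and 3.31, 3.80 and 3.66 with Hif-1α, a rise of 1.33 ± 0.11 (adjusted p = 0.00304). gpx1a, a glutathione peroxidase, fell by 0.63 ± 0.10, a call lost without control replicate 3 or Hif-1α replicate 1 or 3 (-0.70 to -0.58). Of 36 genes of iron, heme and globins 3 rose and 7 fell (1 of each without control replicate 1). There cpox, a late enzyme of heme synthesis, rose 4.73-fold (2.24 ± 0.20, adjusted p = 0.00351), and nfs1, which supplies sulfur for iron-sulfur clusters, fell by 0.90 ± 0.13. Of 48 dehydrogenases and conjugating enzymes 7 rose and 8 fell (14.6% and 16.7%, against 11.7% and 10.9% of all genes). Of these calls 4 and 6 passed also without the block, and 2 of each without control replicate 3. aldh2.2, an aldehyde dehydrogenase, fell by 1.11 ± 0.10 and sult5a1, a sulfotransferase, rose by 2.80 ± 0.29. sult5a1 differed by 1.48 with normexp.

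Large families of general cell functions showed no such tilt. Of 202 RAB, ARF and vesicle traffic genes 18 rose and 22 fell and of 97 genes of endoplasmic reticulum export and glycosylation 11 and 7. Of 150 Krueppel-like and zinc finger genes 16 rose and 16 fell, of 42 mitochondrial carriers 5 and 5, and of 62 genes of G protein signalling 5 and 5. These shares are near the 11.7% higher and 10.9% lower of all genes, and the list medians ran from -0.09 to 0.05.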

How the data were processed

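Per the file headers, each deposited array file gives the processed signal as an intensity made by Feature Extraction 10.7.3.1, background-subtracted and detrended within the array but not scaled between arrays. The headers name the zebrafish grid design 026437, whereas the labels' protocol speaks of a mouse array. The deposited matrix holds log2 values that the authors normalized with GeneSpring 11.0, per the series' design text, and ranks probes as the processed signal does (Spearman 1). The 0 or 1 flags for spots above background are other deposited values, per the file headers.

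Here log2 of the processed signal minus the array's 75th percentile was used. Probes took symbols through RefSeq accessions in the gene table of assembly GRCz12tu, which named 25069 of 43603. A probe entered if 1 or more groups had it clear of the background on each of their 3 arrays, and the brightest probe stood for a gene. Between 68.6% and 75.3% of probes were above background per array, and no spot was saturated. limma 3.58.1 (R 4.3.3) fitted all 9 arrays with group means and the replicate number as a block, and p-values were adjusted by Benjamini-Hochberg, two-sided. The numbers were taken as pairs. Deviations from the group means correlated at 0.286, 0.110 and 0.470 between same-numbered control and Hif-1α arrays, and each same-numbered pair of all 3 groups was above 0.1. Between control and Hif-1α arrays of unlike number the correlation ran from -0.353 to 0.072, the highest close to the 0.110 of pair 2. Deviations from the same group mean depend on one another. The test was checked on simulated data.

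The members and the 76 gene lists were chosen with earlier results of these data known, and 100 genes stand in several lists. Genes could be named if called with and without the block and of 1 direction in all 3 pairs: the 15 largest changes each way outside the HIF target and glycolysis lists, and up to 4 per list and direction by p. Where a list had none that passed both fits, up to 2 were given as values. From these, the genes described were picked after their values were seen. A planned count of motifs in promoters was not run, since no promoter sequences were used here.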

Additional observations from a re-analysis of the deposited data

How the results depend on the processing

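The replicate numbers were taken as pairs, and without the replicate block limma called 1857 genes, 1120 higher and 737 lower. Of the 123 genes described, 121 kept their call without it, and col1a2 and matn4 did not. With the 6 compared arrays alone and the block, 1034 were called (746 and 288). Scan day as a block in place of the experiment left 4 (4 and 0), and both blocks 72 (64 and 8). Within the shared scan day a single Hif-1α array faces 2 controls. It is assumed to vary as the control and Hif-3α arrays of that day do. All 123 genes kept their direction there. Of the 123 calls 104 were kept with the 6 compared arrays, 13 with both blocks, and 0 with scan day alone, within the shared day or with normexp and the 75th percentile. Normexp with the 75th percentile left 0 calls (0 and 0), and gjb1a turned to -0.13. The cause was not tested. Centring on the median called 5053, of which 3297 were lower, and without the filter on dim probes 2271 were called (1357 and 914). Quantile normalization, normexp with quantile normalization, the deposited matrix, the stricter filter and the mean of probes gave between 4085 and 4650. With 1 array left out the count ran from 940 to 5801, with 650 to 3025 higher and 290 to 2776 lower, and the 123 genes kept their direction in each of those fits, with between 102 and 121 of them still called.

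The arrays' small number, the part of the scan days that follows the groups and the slides, which the groups did not share, limit these results. Genes above background on no array of a group have only an approximate bound.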
